A study of Mus musculus with 6 samples.

Results

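The collagen genes other than type IV were examined across the cell classes of a mouse lung tumour single-cell data set. Every feature whose symbol had the form of a collagen alpha-chain gene was taken, except the Col4a genes, which gave 38 genes of 31055 features. The 38 genes were described in 224 fibroblasts, 105 endothelial cells, 6964 alveolar type II (ATII) cells, 956 alveolar type I (ATI) cells and 961 keratin-high cells, out of 16017 cells in the matrix.

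Collagens are triple-helical matrix proteins built from 3 alpha chains, and each gene encodes a chain. Fibrillar collagens (types I, III, V and XI) form the tensile fibres of the lung interstitium and are mostly the work of fibroblasts. Fibril-associated collagens such as XII, XIV and XVI coat these fibres, collagen VI forms beaded filaments beside basement membranes, collagen VII forms anchoring fibrils under epithelia, collagens XV and XVIII sit in basement membrane zones, and collagens XIII, XVII and XXIII are transmembrane proteins. Most chains are hydroxylated, folded and trimmed by a shared set of enzymes and chaperones before they are crosslinked outside the cell.

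Tumours from 6 mice were dissected, of which 3 carried the label Restored and 3 the label NonRestored. All mice carried Lkb1XTR/XTR, a gene-trap allele of Lkb1 that Cre turns off, and the Cre-activated red reporter Rosa26LSL-tdTomato. Tumours were started by Lenti-Cre given into the airway and grew for 20 weeks, and tamoxifen (4 mg doses) or vehicle followed for 2 weeks. The 3 Restored mice carried FLPo-ERT2, the tamoxifen-activated recombinase that restores Lkb1, and received tamoxifen. Of the NonRestored mice, 1 lacked FLPo-ERT2 and received tamoxifen, 1 lacked it and received vehicle, and 1 carried it and received vehicle. The tumours were digested with enzymes that included a collagenase, and the sort removed cells stained for CD45, CD31, F4/80 or Ter119, so the fibroblasts and endothelial cells described here are those that passed a sort for neoplastic cells. No file used here assigns a cell to its mouse. Restored and NonRestored mice were therefore not compared, all cells were handled as 1 sample, and no test between mice was possible.

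Of the 16017 cells, 12183 had at least 500 detected genes and at most 20% mitochondrial UMIs (unique molecular identifiers, which count each captured transcript once). A level in CPM is what a gene would have if its class, with all cells summed, held 1000000 UMIs. A cell was a fibroblast with at least 10 UMIs of Col1a1, Col1a2, Col3a1 and Dcn together, an endothelial cell with a UMI of both Pecam1 and Cdh5, and, per 10000 UMIs of the cell, an ATII cell with at least 500 Sftpc and under 2 Hopx, an ATI cell with at least 15 Hopx and a keratin-high cell with at least 50 Krt8 plus Krt18. The 235 cells that met several rules were set aside. Median depth was 15894 UMIs in fibroblasts, 11505 in endothelial cells, 21650.5 in ATII cells, 11796.5 in ATI cells and 24593 in keratin-high cells. The class names were checked against marker lists. All 8 genes of the fibroblast list, of which Dcn alone was in the rule, reached 20 CPM in fibroblasts, and all 6 of the endothelial list, of which Pecam1 and Cdh5 were in the rule, did so in endothelial cells. The 6 genes of the ATI list, of which Hopx was in the rule, summed to 12187 CPM in ATI cells against 1714 in ATII cells. The keratin-high list, of which Krt8 and Krt18 were in the rule, summed to 15318 in keratin-high cells against 1513 in ATII cells. ATII transcripts were also abundant in both classes, with the 8 ATII markers at 57802 CPM in ATI cells and 21836 in keratin-high cells, above the list of the class itself. The myofibroblast and smooth muscle list (Acta2, Tagln, Myh11, Hhip and Aspn) summed to 2710 CPM in the fibroblasts, so transcripts of those cell types were part of the class. The 8 ATII markers summed to 2234 CPM in fibroblasts and 1218 in endothelial cells, against 207440 in ATII cells. The TdTomato transcript was at 637 CPM in fibroblasts and 441 in endothelial cells, against 6494 in ATII cells. Whether the stromal cells themselves made the reporter was not tested. As a reference for stray RNA, 68 immune cells (a Ptprc UMI, at least 5 Tyrobp UMIs and no other class) were measured the same way. The ATII markers other than Lyz2, which macrophages also make, summed to 4944 CPM in them.

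Here and throughout, exact Poisson 95% intervals of levels stand in parentheses. The 10x 3′ assay counts transcript ends, so levels were not divided by gene length, and capture can differ between genes. A gene was called higher or lower where the ratio of 2 classes reached 2-fold, among features whose mean level over both classes was at least 5 CPM. With 1 pooled sample these calls carry no p-value, and the intervals cover counting error only.

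The promoters of 4 genes are shown for the regulatory context of Col6a1 and Col6a2, whose levels followed each other in ATII cells, and of Col8a1 and Col23a1, which divided the epithelial classes. They are RefSeq promoters on GRCm38.p6, read 5′ to 3′ on the gene's strand from 250 bases before the annotated start, with capitals at motif matches. Col6a1 lies at chr10:76725995-76726294 (minus strand), and its capitals mark a match to the AP-1 motif TGANTCA that begins 90 bases before the start.
Col6a1: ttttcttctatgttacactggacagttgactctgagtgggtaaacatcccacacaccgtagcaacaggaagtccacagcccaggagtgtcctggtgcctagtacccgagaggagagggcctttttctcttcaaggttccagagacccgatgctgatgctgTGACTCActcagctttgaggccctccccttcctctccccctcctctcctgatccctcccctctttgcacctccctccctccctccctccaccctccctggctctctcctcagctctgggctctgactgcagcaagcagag
Col6a2 has 2 listed promoters. That at chr10:76623355-76623654 held no match and is not printed. The other lies at chr10:76623581-76623880 (minus strand), and its capitals mark a match to the C/EBP motif TTGCNNAA, on the opposite strand, 45 bases before the start.
Col6a2: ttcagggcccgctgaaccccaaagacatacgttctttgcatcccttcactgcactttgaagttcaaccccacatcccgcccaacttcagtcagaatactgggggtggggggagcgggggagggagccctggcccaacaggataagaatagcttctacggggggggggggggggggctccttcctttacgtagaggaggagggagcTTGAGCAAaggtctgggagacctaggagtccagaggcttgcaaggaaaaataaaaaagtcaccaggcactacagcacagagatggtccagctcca
Col8a1 lies at chr16:57754688-57754987 (minus strand), and its capitals mark 2 matches to the NKX2-1 motif CAAGTG, 99 bases and 1 base before the start.
Col8a1: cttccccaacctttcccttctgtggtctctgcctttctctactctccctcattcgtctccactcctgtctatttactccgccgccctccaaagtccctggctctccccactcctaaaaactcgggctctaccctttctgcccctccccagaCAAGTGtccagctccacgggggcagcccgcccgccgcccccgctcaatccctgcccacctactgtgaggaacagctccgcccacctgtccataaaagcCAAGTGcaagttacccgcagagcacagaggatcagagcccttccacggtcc
Col23a1 lies at chr11:51289670-51289969 (plus strand), and its capitals mark a match to CAAGTG 227 bases before the start.
Col23a1: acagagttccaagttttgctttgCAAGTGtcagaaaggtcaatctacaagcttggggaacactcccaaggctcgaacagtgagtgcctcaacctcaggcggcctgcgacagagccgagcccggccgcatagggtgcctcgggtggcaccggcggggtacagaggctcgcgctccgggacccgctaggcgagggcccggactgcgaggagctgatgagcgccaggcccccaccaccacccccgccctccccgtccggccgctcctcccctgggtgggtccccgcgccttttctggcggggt
Across the 33 promoters listed for 30 of the collagen genes, TGANTCA was found in 1, TTGCNNAA in 2, CAAGTG in 6 and CCAAT in 10, on either strand. Of all 32817 promoters, 7.81% held TGANTCA, 10.8% TTGCNNAA, 13.6% CAAGTG and 37.4% CCAAT. A match describes the letters only, and no binding was measured.

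Fibroblasts held the largest number of collagens and the highest levels. Of the 38 genes, 32 had a UMI in fibroblasts, 21 reached 5 CPM and 17 reached 20 CPM. Each count includes the 3 collagens of the rule that chose the cells. The corresponding numbers at 20 CPM were 3 in endothelial cells, 2 in ATII cells, 0 in ATI cells and 2 in keratin-high cells. Fibroblasts held the highest level of 28 genes, 3 of them in the rule that chose the cells. Of the 18 genes outside the rule whose highest level reached 5 CPM, fibroblasts held that of 16 and endothelial cells that of 2, Col15a1 and Col23a1, whose intervals overlapped those in fibroblasts. After each cell was thinned to 5000 UMIs, a fibroblast contained UMIs of a median of 7 collagen genes outside the rule (185 cells), and the median was 1 in endothelial cells and 0 in the epithelial classes. Among the genes outside the fibroblast rule, the summed level was 2938 CPM in fibroblasts (2885 to 2993), 252 in endothelial cells (227 to 279), 146 in ATII cells (144 to 148), 101 in keratin-high cells (97.0 to 105) and 59.5 in ATI cells (55.4 to 63.8). The immune reference stood at 23.9 (17.1 to 32.4), below all 5 classes.

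**Figure D1:**
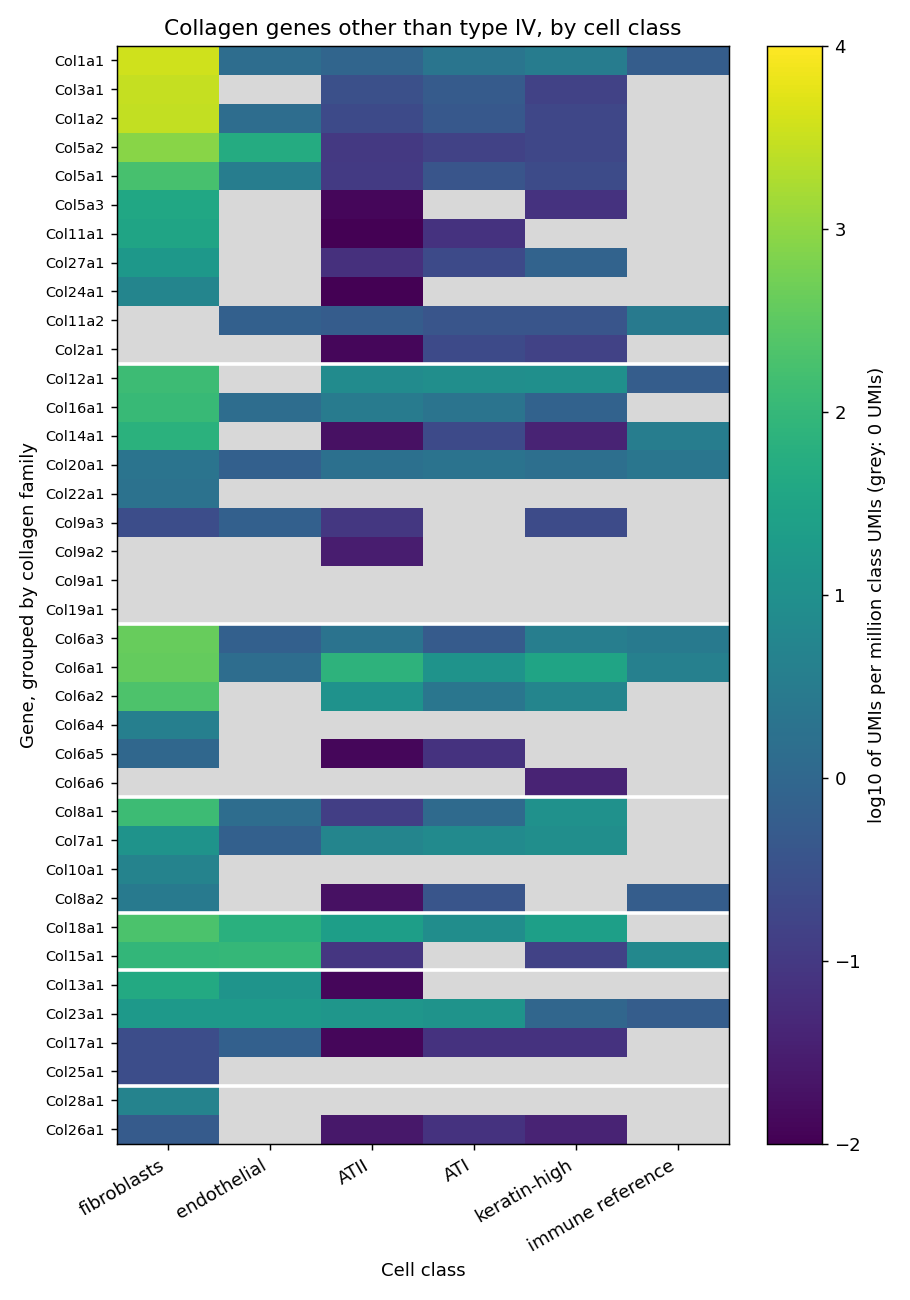
Heat map of the 38 collagen genes (rows, grouped by family and separated by white lines) in 6 cell classes (columns), coloured by the log10 of the level in CPM, with grey for 0 UMIs. Among the 5 classes, the fibroblast column is brightest for 28 of the genes, the endothelial column stands out for Col5a2, Col15a1 and Col18a1, and the epithelial columns for Col6a1, Col18a1, Col23a1, Col12a1 and Col7a1.

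In fibroblasts the major fibrillar chains dominated, but 3 of them were part of the rule that chose the cells and are given as a description. Col1a1 stood at 3759 CPM, Col1a2 at 2786 and Col3a1 at 2951. Col1a1 and Col1a2 encode the chains of collagen I, and Col3a1 that of collagen III. The UMIs of the rule genes ranged from 10 to 1468 in a fibroblast with a median of 193.5, while 12 filtered cells had 10 to 12 such UMIs and 11 cells just outside had 8 or 9. Few cells therefore lay near the limit.

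The fibrillar chains outside the rule were abundant in fibroblasts and scarce in ATII cells. Col5a2, a chain of collagen V, which nucleates collagen I fibrils, was at 842 CPM (813 to 871) against 0.0993 in ATII cells (16 UMIs). Col5a1, its partner chain, was at 183 (170 to 197) against 0.105 (17 UMIs). Col5a3 was at 37.7 and Col11a1, a chain of collagen XI, at 31.5, with 2 and 1 UMIs in all ATII cells together. Per 10000 UMIs of a fibroblast, Col5a2 ranged from 0 through a median of 7.23 to 33.6 and was detected in 213 of the 224 cells. Col5a1 was detected in 178 cells, Col5a3 in 62 and Col11a1 in 36. Detection of chains at such levels depends on the depth of a cell, so these numbers do not count expressing cells. Col27a1, a fibrillar collagen of developing cartilage, reached 15.8 CPM, the highest level among the 19 collagens that were not singled out.

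Collagen VI, the beaded filament collagen, was the other abundant family in fibroblasts. Col6a3 was at 407 CPM (387 to 427), Col6a1 at 378 (359 to 398) and Col6a2 at 209 (195 to 224). Of the UMIs of these 3 chains, Col6a1 made up 38.0%, Col6a2 21.0% and Col6a3 40.9%. Per 10000 UMIs of a fibroblast, Col6a1 ranged from 0 through a median of 3.28 to 14.9, and 195 of 224 cells had a UMI. Col6a4, a less common chain, was at 3.88 CPM, Col6a5 at 1.03 and Col6a6 at 0.

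Fibril-associated and network collagens followed. Col12a1 was at 130 CPM (119 to 142), Col16a1 at 108 (97.4 to 118) and Col14a1 at 69.3 (61.2 to 78.1). Col8a1, a short-chain network collagen of vessel walls, was also at 130 (119 to 142), but 63 of 224 fibroblasts had a UMI of it, against 144 for Col12a1 at the same level, and 1 cell held 15% of its UMIs. Col18a1, the precursor of endostatin, was at 204 (190 to 219) and Col15a1, its relative, at 93.3 (83.9 to 103). The transmembrane Col13a1 was at 43.4 (37.1 to 50.5) in 54 cells.

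Of the 17 collagens outside the rule that could be compared between fibroblasts and ATII cells, 16 were at least 2-fold higher in fibroblasts and 0 lower. Of all 10310 features compared, 25.5% were at least 2-fold higher and 11.5% at least 2-fold lower. The median log2 ratio over all features was 0.36. Of the 17, 11 were at or above 5 CPM in fibroblasts alone and passed the filter through that level, so they could be called in 1 direction only and their count is no support. Of the 6 at 5 CPM in both classes, 5 were higher. The exception was Col23a1, a transmembrane collagen, at 16.5 in fibroblasts and 14.1 in ATII cells, a ratio of 1.18 with an exact conditional binomial 95% interval of 0.903 to 1.51. The other ratios ran from 2.29 for Col7a1 (1.68 to 3.07) and 4.94 for Col6a1 (4.68 to 5.22) to 8475 for Col5a2. With the fullest cell of each class left out, the log2 ratio of Col7a1 was 0.83 in place of 1.20, under 2-fold. Because the rule required collagen I, collagen III or decorin UMIs, it favoured matrix-rich cells, and that choice and the levels of the other collagens cannot be told apart here.

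The genes that serve collagen production were counted in the same comparison, from lists chosen by function, to be read against the 25.5% of all features higher and 11.5% lower and under the same limit of the filter. In the list of biosynthesis and folding, 13 of 19 compared genes were higher in fibroblasts and 0 lower. Serpinh1, the collagen chaperone HSP47, was at 1107 against 108 CPM, and Plod2, a lysyl hydroxylase, at 71.3 against 0.199. P4ha1, a catalytic subunit of prolyl 4-hydroxylase, stood at 85.3 in fibroblasts and 136 in ATII cells and P4hb, its partner, at 232 in both, and neither passed 2-fold. In the list of processing and crosslinking, 7 of 10 were higher, among them Adamts2, which trims procollagen, at 227 against 0.031 and Lox, which crosslinks fibrils, at 165 against 0.0186. All 10 fibril-associated matrix genes compared were higher, as were all 7 genes of degradation and its inhibitors and 4 of 5 collagen receptors, the exception being Ddr1. Dcn, among the matrix genes, was in the fibroblast rule, so its call was fixed by the choice of cells. Of 6 partners of collagen XVII compared, 3 were higher and 3 lower.

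The fibroblasts were then divided by detection of Col13a1 and Col14a1, 2 collagens often used as markers of alveolar and adventitial lung fibroblasts. There were 25 cells with only Col13a1, 50 with only Col14a1, 29 with both and 120 with neither, and the cells with both were the deepest, with a median of 23313 UMIs against 13555.5 in cells with neither. Detection of a gene at this level depends on depth, so the groups are ranges rather than types. Each alveolar fibroblast marker was higher in cells with only Col13a1 than in cells with only Col14a1. Inmt stood at 1060 against 347 CPM, Npnt at 283 against 84.5 and Tcf21 at 210 against 105. Of the 5 adventitial markers, 4 were lower there. Pi16 stood at 0 UMIs against 987 CPM, of which 1 cell held 70.6%, Clec3b at 418 against 721, Ly6c1 at 23.4 against 92.0 and Mfap5 at 1901 against 2231. Dpp4 rested on 10 and 5 UMIs, mostly of 1 cell in each group. Among fibroblasts of 10000 to 30000 UMIs the order of Mfap5 turned, to 2198 against 1637.

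Other collagens differed between these groups. Col5a1 was at 93.4 (66.7 to 127) in cells with only Col13a1 and 212 (183 to 243) in cells with only Col14a1. Col12a1 was at 63.1 (41.6 to 91.7) and 145 (122 to 172), and Col11a1 was at 0 UMIs against 35.3 (24.3 to 49.6), although 1 cell held 51.5% of the latter. Col8a1 was highest in cells with neither, at 218 (198 to 241), against 18.7 (8.07 to 36.8) with only Col13a1 and 93.0 (74.5 to 115) with only Col14a1. Col23a1 went the other way, at 32.7 (17.9 to 54.9) against 8.56 (3.69 to 16.9). Col6a1 was at 392 (335 to 456) and 401 (362 to 444), and it was at 502 (450 to 558) in cells with both and 316 (291 to 343) in cells with neither. Among fibroblasts of 10000 to 30000 UMIs the levels of Col5a1 were 110 and 214, those of Col12a1 66.6 and 139, and those of Col23a1 46.6 and 9.50. Col8a1 was then at 3.33 (1 UMI) and 55.4, against 179 in cells with neither, and Col11a1 at 0 UMIs and 12.7.

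**Figure D2:**
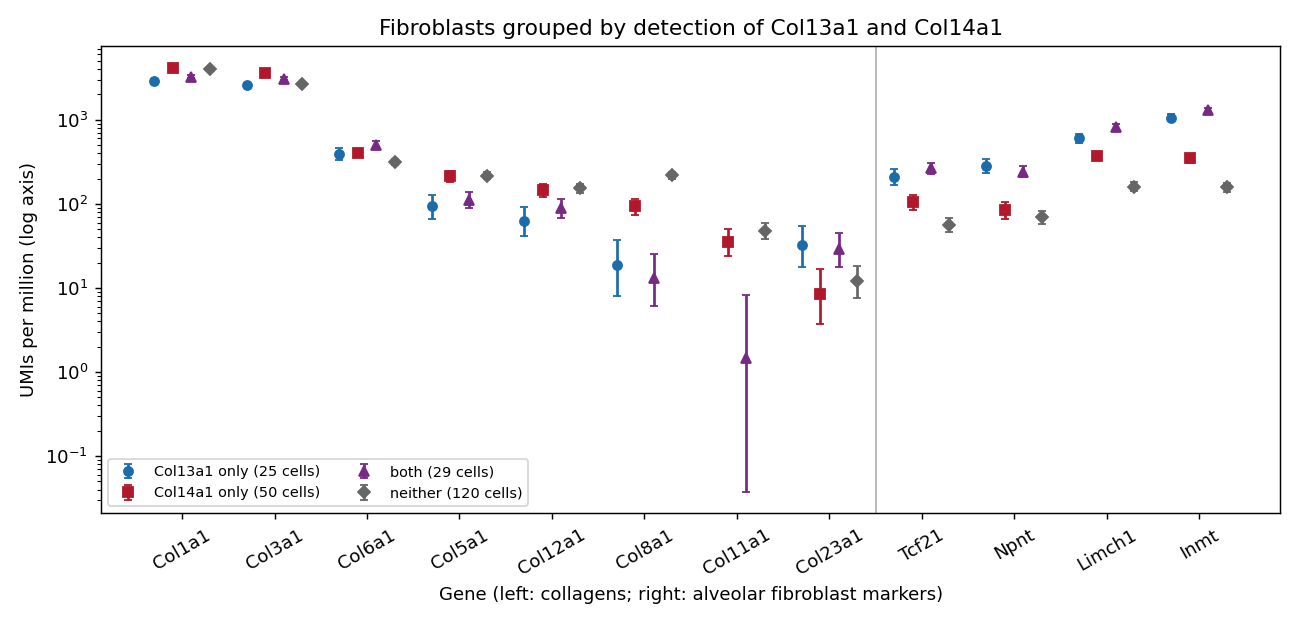
Levels in CPM (log axis, bars are exact Poisson 95% intervals) of 8 collagens, left of the line, and 4 alveolar fibroblast markers, right of it, in fibroblasts with UMIs of Col13a1 only, Col14a1 only, both or neither, and levels of 0 are left out. Cells with Col13a1 sit high for the alveolar markers and low for Col5a1, Col12a1, Col8a1 and Col11a1, while Col6a1 is at 316 to 502 in every group.

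Of the fibroblasts, 15 had an Epcam UMI and 4 had at least 3 UMIs of the mesothelial markers Upk3b, Wt1 and Lrrn4. In the 205 cells left without them, Col14a1 was 10.8% higher and Col8a1 fell by 2.37%, the extremes among the named collagens.

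Endothelial cells had a short collagen repertoire, and each gene that reached 5 CPM in them also did so in fibroblasts. Col15a1 was at 97.6 CPM (82.1 to 115), Col18a1 at 63.7 (51.3 to 78.1), Col5a2 at 48.4 (37.8 to 61.2), Col23a1 at 18.0 (11.8 to 26.4) and Col13a1 at 12.5 (7.38 to 19.7). Col15a1 and Col18a1 are the multiplexins of vascular basement membranes. The level of Col15a1 was 105% of that in fibroblasts, and the levels of Col18a1, Col13a1 and Col5a2 were 31.2%, 28.7% and 5.76% of it. Col3a1, Col6a2, Col12a1 and Col14a1 were at 0 UMIs in endothelial cells, where a count of 0 allows up to 2.08 CPM, and Col1a1 and Col1a2 had 2 UMIs each.

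These collagens were spread over cells rather than carried by 1. Of 105 endothelial cells, 44 had a UMI of Col15a1, 32 of Col5a2 and 31 of Col18a1. All 3 were found in 6 cells, 2 of them in 23, 1 in 43 and none in 33, and the median depth of these sets went from 3962 UMIs with none to 21273 with all 3. After thinning to 5000 UMIs, 26.7% of cells (17.1 to 38.1, exact binomial) had Col15a1, against 0.0296% of ATII cells and 6.06% of the immune reference (1.68 to 14.8), where its level was 6.40 CPM (3.20 to 11.5). The fullest cell held 26% of the Col5a2 UMIs and 20% of those of Col18a1.

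Compared with ATII cells, 7 collagens passed the level filter, of which 4 were at least 2-fold higher in endothelial cells and 2 lower. Of all 10160 features compared, 31.4% were higher and 12.8% lower, and the median log2 ratio over all features was 0.52. With cells of 2 classes kept in both, 8 of 12 collagens were higher, against 29.0% of all features. With a filter of 1 CPM 7 of 14 were lower, against 14.3%. Col15a1, at 1123-fold (648 to 2107), Col13a1, at 1004-fold, and Col5a2, at 488-fold (280 to 900), had next to no UMIs in ATII cells and passed the filter through endothelial cells alone. Col18a1 was 2.83-fold higher (2.27 to 3.48), which came to a log2 ratio of 0.98 relative to the median feature, just under 2-fold. Collagen VI went the other way. Col6a1 was 55.2-fold lower in endothelial than in ATII cells (15.3 to 456), from 2 UMIs, and Col6a2, with 0 UMIs, was at least 5.38-fold lower, both having passed through ATII cells alone. For these 5 of the 7 the filter thus fixed the direction. In the list of biosynthesis and folding 12 of 20 genes were higher and 3 lower, and Sparc, a collagen-binding matrix protein, was at 4173 CPM against 295.

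In the epithelial classes a different set was found, led by collagen VI. Col6a1 was at 76.4 CPM (75.1 to 77.8) in ATII cells, 32.4 (30.2 to 34.6) in keratin-high cells and 12.1 (10.3 to 14.1) in ATI cells. Col18a1 was at 22.5 (21.8 to 23.2), 23.8 (22.0 to 25.8) and 8.62 (7.11 to 10.3), Col23a1 at 14.1 (13.5 to 14.7), 0.969 (0.627 to 1.43) and 11.8 (10.0 to 13.8), and Col6a2 at 11.2 (10.7 to 11.7), 5.39 (4.53 to 6.36) and 2.32 (1.58 to 3.30), in the same order. The 3 classes thus differed in which collagens they held as well as in the amount. Col12a1 was at 8.04 to 9.61 and Col7a1 at 5.41 to 9.11 across the classes. Because ATII cells were numerous, they held 73.4% of all Col6a1 UMIs of the filtered cells, against 8.71% in fibroblasts, and 58.1% of those of Col18a1.

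**Figure D3:**
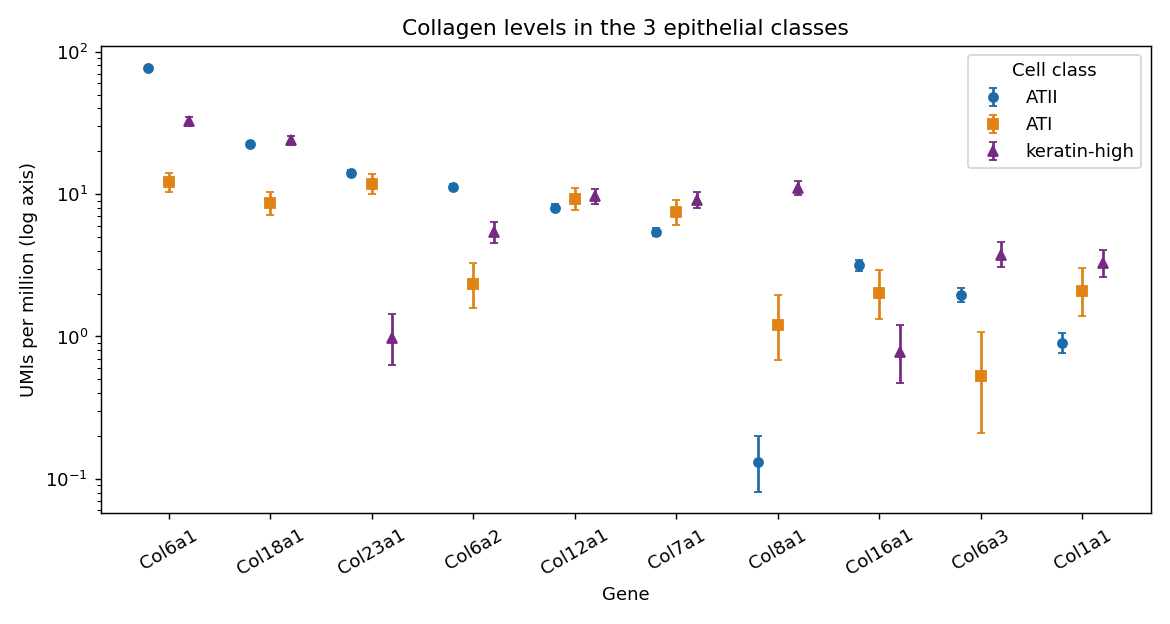
Levels in CPM (log axis) of 10 collagens in ATII (circles), ATI (squares) and keratin-high cells (triangles), with exact Poisson 95% intervals. Col6a1 is highest in ATII cells at 76.4, Col23a1 is low only in keratin-high cells at 0.969, and Col8a1 is high only there at 11.0.

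Fibroblast markers gave a scale for stray RNA. Mgp, the most abundant of them at 36722 CPM, stood in the epithelial classes at 0.0130% to 0.0169% of its fibroblast level, and Dcn at 0.0104% to 0.0200%. Dcn was in the fibroblast rule, and cells that met several rules had been set aside. The choice of cells thus capped Dcn in epithelium, and its share is a description rather than part of the scale. Of the 8 markers, 7 stood at 0.115% or less, and the exception was Gsn, the actin regulator gelsolin, at 4.28% to 19.9%. Col6a1 in ATII cells stood at 20.2% of its fibroblast level, Col18a1 at 11.0%, Col6a2 at 5.34% and Col6a3 at 0.479%, all above the 7 markers. Col5a2 in ATII cells stood at 0.0118% and Col3a1 at 0.00988%, below the lowest share of Mgp. After thinning to 5000 UMIs, 29.6% of ATII cells (28.5 to 30.7) had a Col6a1 UMI, against 1.52% of the immune reference (0.0384 to 8.16), which had a similar median depth of 25296 UMIs. Before thinning the shares were 62.8% and 5.88%.

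The chains of collagen VI were present in unequal amounts in epithelium. The protein is assembled from the products of Col6a1, Col6a2 and Col6a3 together. In ATII cells Col6a1 made up 85.4% of the UMIs of the 3 genes (84.8 to 85.9), Col6a2 12.5% and Col6a3 2.18%, against 38.0%, 21.0% and 40.9% in fibroblasts. Keratin-high cells had 78.0% Col6a1 and 9.06% Col6a3, and ATI cells 80.9% and 3.52%. The intervals of the Col6a1 share in fibroblasts (36.5 to 39.6) and in each epithelial class did not overlap. On chromosome 10 of GRCm38, Col6a2 (76595762 to 76623630) and Col6a1 (76708792 to 76726168) lie on the same strand with 85161 bases and 1 gene between them.

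**Figure D4:**
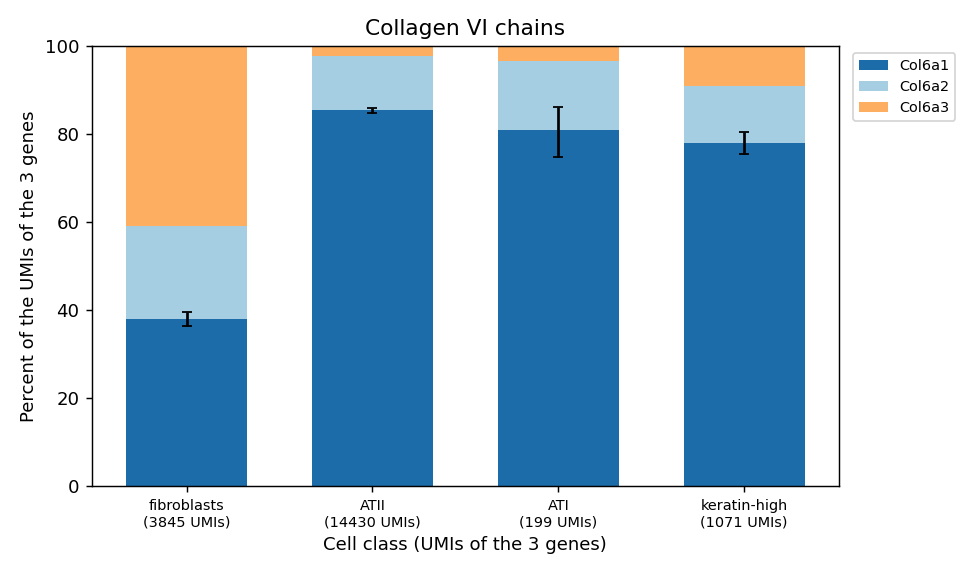
Stacked bars of the percent of UMIs that each gene contributed to the sum of Col6a1, Col6a2 and Col6a3 (vertical axis) in 4 cell classes (horizontal axis), with exact binomial 95% intervals on the lowest segment and total UMIs under each bar. Col6a1 takes 38.0% in fibroblasts and 78.0% to 85.4% in the 3 epithelial classes, while Col6a3 takes 40.9% in fibroblasts and at most 9.06% in the others.

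Collagens I and III were scarce in epithelium and are given as a description, since their UMIs chose the fibroblasts and cells with 10 or more UMIs of the rule genes had been set aside, which caps these levels. Col1a1 was at 0.906 CPM in ATII cells, 2.10 in ATI cells and 3.26 (2.60 to 4.03) in keratin-high cells, and Col1a2 and Col3a1 were each at or below 0.525. In keratin-high cells Col1a1 stood at 0.0866% of its fibroblast level, where Pdgfrb, the highest of the 7 stray markers in that class, stood at 0.0298% (2 UMIs). The 84 Col1a1 UMIs of keratin-high cells lay in 51 cells. With cells of 2 classes kept in both, the log2 ratio of Col1a1 between keratin-high and ATII cells was 0.23 in place of 1.85.

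Between ATI and ATII cells, 6 collagens passed the level filter, of which 0 were at least 2-fold higher in ATI cells and 3 lower. Of the 9404 features compared, 11.1% were higher and 5.22% lower, and the median log2 ratio over all features was 0.37. Col6a1 was 6.34-fold lower in ATI cells (5.42 to 7.45), Col6a2 4.81-fold lower (3.37 to 7.09) and Col18a1 2.61-fold lower (2.17 to 3.17), and Col6a2 passed the filter through ATII cells alone. The share of cells with a Col6a1 UMI after thinning was 4.64% in ATI cells (3.32 to 6.29), the lowest of the 3 epithelial classes. Col12a1, Col7a1 and Col23a1 had ratios of 1.16 (0.953 to 1.39), 1.38 (1.11 to 1.70) and 0.837 (0.707 to 0.984), all within 2-fold. In the receptor list 3 of 4 genes were higher in ATI cells, with Ddr1, a collagen-activated receptor kinase, at 71.2 against 16.3 CPM, and Itga1, the collagen-binding integrin alpha 1, lower at 2.92 against 10.9.

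Keratin-high cells had less Col23a1, Col6a1 and Col6a2 than ATII cells. Col6a3 went the other way, at 0.924% of its fibroblast level against 0.479% in ATII cells, and did not pass the level filter. Of 7 collagens compared, 1 was at least 2-fold higher and 3 lower, where 14.8% of the 9496 features were higher and 5.27% lower, with a median log2 ratio of 0.38. The count of 1 higher was at the share of all features. Col8a1 was 84.8-fold higher (54.4 to 139), at 11.0 CPM (9.80 to 12.4) from 285 UMIs in 82 of 961 cells, against 21 UMIs in 6964 ATII cells. Its mean level over both classes lay near the 5 CPM filter, and it was not counted when cells of 2 classes were kept in both (log2 ratio 5.16) or the deepest 2% of cells were left out (6.30). Col23a1 was 14.5-fold lower (9.80 to 22.5), Col6a1 2.36-fold lower (2.20 to 2.54) and Col6a2 2.07-fold lower (1.74 to 2.48). At most 10% mitochondrial UMIs, the log2 ratio of Col6a2 was -0.997, just under 2-fold. Col18a1 stood at a ratio of 1.06 (0.970 to 1.15) and Col7a1 at 1.68 (1.45 to 1.95). Col8a1 passed the filter through keratin-high cells alone and Col23a1 through ATII cells alone. After thinning, 3.72% of keratin-high cells had a Col8a1 UMI (2.57 to 5.18) and 0.676% a Col23a1 UMI (0.248 to 1.46), against 0.0296% and 6.89% of ATII cells.

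Genes whose products bind collagens also differed. The integrin gene Itga2, whose product binds collagen I, was at 233 CPM in keratin-high cells against 2.14 in ATII cells, and Fn1, fibronectin, at 456 against 66.2. Of 5 collagen receptors compared, 3 were higher in keratin-high cells, and 2 were lower, namely Itga1 at 3.06 against 10.9 and Mrc2, an endocytic collagen receptor, at 9.93 against 29.8. Col17a1, the hemidesmosomal collagen, was close to absent, at no more than 0.692 CPM in any class. Of 8 partners of collagen XVII, 6 were higher in keratin-high cells and 0 lower, among them Itgb4, at 21.3 against 0.720. The same list had 6 of 8 higher and 2 lower in endothelial cells and 4 of 7 higher in ATI cells, each against ATII cells. The shares of all features higher were 14.8% in keratin-high, 31.4% in endothelial and 11.1% in ATI cells, and genes such as Itgb4 and Itga2 passed the level filter through the class in which they were high. In the list of biosynthesis and folding 3 of 16 genes were higher and 1 lower, close to the shares of all features, and Serpinh1 stood at 212 against 108, just under 2-fold.

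Set directly against keratin-high cells, ATI cells were at least 2-fold higher for 1 of 6 collagens and lower for 3, where 4.73% of 9568 features were higher and 6.66% lower. Col23a1 was 12.1-fold higher in ATI cells (7.93 to 19.3). Col23a1 and Col8a1 each passed the filter through 1 class alone. Col8a1 was 9.22-fold lower (5.58 to 16.3), Col18a1 2.76-fold lower (2.26 to 3.40) and Col6a1 2.68-fold lower (2.26 to 3.20). The ratios of Col12a1 and Col7a1 were 0.966 (0.773 to 1.20) and 0.823 (0.644 to 1.04). The comparisons with ATII cells share those cells, so their ratios are not independent of each other.

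The ATII cells themselves were not uniform. They were divided into 6 ranges of Lyz2, the lysozyme gene of mature ATII cells, which the class rule had not used. From under 5 to at least 200 Lyz2 UMIs per 10000, Col6a1 went from 45.3 CPM (42.3 to 48.4) through 61.0, 70.4, 74.3 and 80.7 to 93.4 (90.5 to 96.3). Col6a2 went from 6.67 (5.58 to 7.92) to 14.1 (13.0 to 15.2), in step with Col6a1 except between the third and the fourth range. Col7a1 went the other way, from 11.5 (10.0 to 13.1) through 7.97, 7.69, 5.45 and 4.12 to 2.50 (2.05 to 3.01). Col12a1 was highest in the middle, at 12.1, and lowest at the top, at 4.84. Col18a1 was at 25.9 and 26.2 in the lowest 2 ranges and 19.8 at the top, a ratio of top to bottom of 0.764 (0.684 to 0.855), and Col23a1 stood between 12.5 and 15.4 with no order.

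Between the top range (1599 cells) and the bottom range (999 cells), Col6a1 was 2.06-fold higher (1.92 to 2.22), Col6a2 2.11-fold higher (1.75 to 2.57) and Col7a1 4.60-fold lower (3.64 to 5.83). Of 6 collagens compared, 2 were therefore at least 2-fold higher and 1 lower, where 1.23% of 9169 features were higher and 4.05% lower, and the median log2 ratio over all features was -0.33. Col7a1 and Col12a1 reached 5 CPM in the bottom range alone and could be called in 1 direction only. The call of Col7a1 is therefore no support. Median depth went from 17773 to 26284 UMIs over the ranges, and its part in the result was not tested. The ranges pooled cells of Restored and NonRestored mice, and differences between these mice cannot be told apart from the result. Macrophages also express Lyz2, and Col6a1 was at 4.07 CPM (1.64 to 8.39) in the immune reference. The part of macrophage RNA in the result was not tested.

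**Figure D5:**
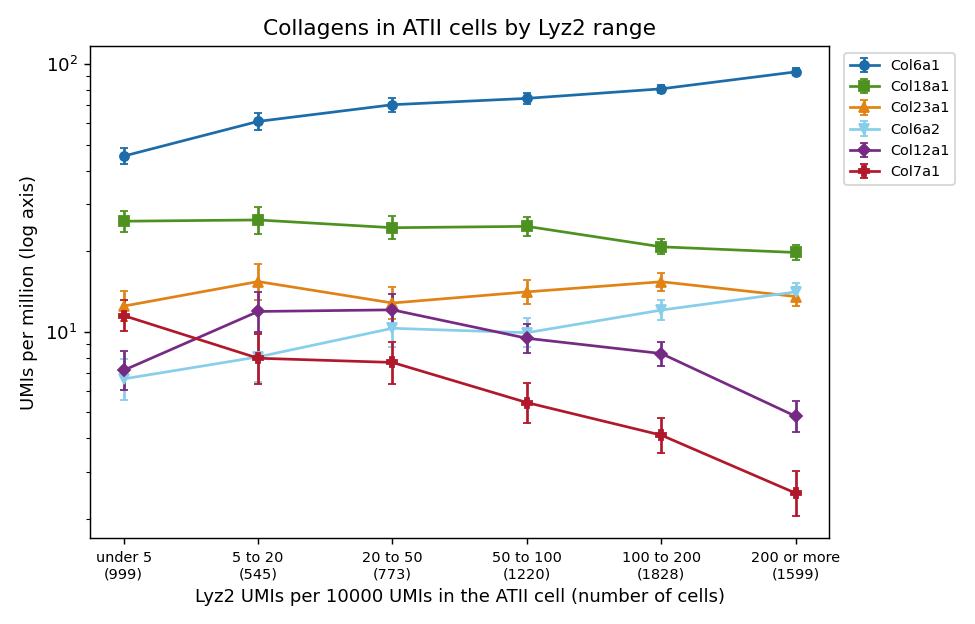
Levels in CPM (log axis, exact Poisson 95% intervals) of 6 collagens in ATII cells divided by Lyz2 UMIs per 10000 UMIs, with the number of cells under each range. Col6a1 goes from 45.3 to 93.4 and Col6a2 from 6.67 to 14.1, while Col7a1 goes from 11.5 to 2.50.

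The remaining collagens were rare. Of the 38 genes, 19 did not reach 20 CPM in stroma or 5 CPM in epithelium, and 2 of these, Col9a1 and Col19a1, had no UMI in any filtered cell. In the epithelial classes none of the 19 exceeded 1.95 CPM, and in endothelial cells none exceeded 0.692. Col24a1 at 5.43 CPM, Col28a1 at 4.91 and Col10a1 at 4.91 were seen in fibroblasts. Col20a1 was at 0.692 to 2.07 in the 5 classes and 2.33 in the immune reference, with no class apart.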

How the data were processed

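Sorted single cells of mouse lung tumours were sequenced with the 10x 3′ v3 assay. The deposited values were counts, whole UMIs per gene and cell, which the authors made with Cell Ranger 3.0.2 on mm10; the gene annotation is not given in the sources used here. The matrix pooled all libraries, held 266713311 UMIs and came without a map from cells to mice, so cell barcodes shared between libraries could not be counted. Cells were filtered at 500 genes and 20% mitochondrial UMIs and classed by the rules in the report, and cells of several classes were left out, which is how doublets were treated. The study's own removal of fibroblasts and endothelial cells was not applied.

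Counts were summed per class and scaled to CPM. Levels carry exact Poisson, ratios exact conditional binomial and shares exact Clopper-Pearson intervals at 95%, for counting error only, and a count of 0 was set to 3 counts per class in ratios. Shares were taken after thinning to 5000 UMIs, which left out 39 fibroblasts, 30 endothelial, 203 ATII, 115 ATI and 73 keratin-high cells. Named collagens reached 20 CPM in fibroblasts or endothelial cells or 5 CPM in an epithelial class, which gave 19. The collagens, classes and gene lists were chosen with earlier results of these data known. The division by Lyz2, that by Col13a1 and Col14a1, the omission of the fullest cell and the omission of Epcam or mesothelial cells were added after seeing the data. The ratio step was tested on simulated data. Gene positions came from GENCODE M21 (GRCm38), whose IDs matched all 38 genes, and promoters from RefSeq. Python 3.11.15, numpy 2.4.6, scipy 1.17.1 and pandas 2.3.3 were used. An allele that all mice carried and a gene of the lists are not reported here.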

Additional observations from a re-analysis of the deposited data

Results flagged for a closer look

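The 3834 cells that failed the filter, which entered no comparison, also held collagen UMIs. Their summed level over all 38 genes was 208 CPM (1986 UMIs), where a count of 0 would allow 0.314 CPM. Col6a1 was at 62.5 CPM (57.6 to 67.7), Col7a1 at 22.1 (19.2 to 25.3) and Col12a1 at 16.8 (14.3 to 19.6) in these cells. Of their 438 UMIs of Col1a1, Col1a2 and Col3a1, 313 lay in 12 cells that met the fibroblast rule apart from the filter.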

How the results depend on the processing

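No paired analysis was possible because cells could not be assigned to mice, and replicates could not be left out. With cells of 2 classes kept in both, 8 of 12 collagens were higher in endothelial than in ATII cells, against 29.0% of all features. In keratin-high cells 0 of 6 were, against 13.3%. The summed level outside the fibroblast rule was then 2749 CPM in fibroblasts and 331 in endothelial cells. Of the log2 ratios to ATII cells, those of Col6a3 (2.97) and Col16a1 (0.29) in endothelial cells, Col1a2 (-1.99) and Col1a1 (-0.75) in ATI cells and Col5a1 (-0.082) and Col14a1 (-1.04) in keratin-high cells then changed sign; none of these genes passed the level filter in the comparisons as reported. The log2 ratio of Col6a3 in endothelial cells, which rested on 1 UMI, also changed sign with a fibroblast rule of 30 UMIs (1.05) and without the fullest cell (0.11). The summed level in fibroblasts was 3040 CPM with the rule of 30 UMIs and 3091 CPM without cells carrying markers of another lineage, and that in ATII cells was 142 CPM at most 10% mitochondrial UMIs. Keratin-high cells had 0 collagens higher than ATII cells without the deepest 2% of cells, since Col8a1 fell below the filter with a log2 ratio of 6.30, and 2 when cells were averaged. With a filter of 1 CPM, 7 of 14 collagens were lower in endothelial than in ATII cells, against 14.3% of all features. In ATI cells 1 of 10 was higher than in ATII cells, against 12.7%, and in keratin-high cells 2 of 11, against 16.5%. Between ATI and keratin-high cells, 2 of 11 were higher in ATI cells and 5 lower, against 6.24% and 9.05%. With a filter of 10 CPM, 1 of 5 collagens was lower in endothelial than in ATII cells, against 11.96% of all features. In keratin-high cells 0 of 2 were higher and 1 of 2 lower than in ATII cells, against 14.6% and 4.93%. Of 2 compared between ATI and keratin-high cells, 0 were higher in ATI cells, against 4.25%. Of 726 log2 ratios recomputed for named collagens, 8 changed sign and 25 that had been past 2-fold fell under it. Of the latter, Col6a2 in keratin-high cells (at most 10% mitochondrial UMIs, -0.997), Col7a1 in fibroblasts (without the fullest cell, 0.83, and relative to the median feature, 0.84) and Col18a1 in endothelial cells (relative to the median feature, 0.98) had been called. Limits of depth were set by the small classes, where 3 UMIs correspond to 2.08 CPM in endothelial cells. Differences between mice were not measurable.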
